A study of Mus musculus with 7 samples.

Results

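The genes described here encode the chaperones of the cytosol and the mitochondria, the proteins that help other proteins fold, assemble and stay soluble. They were chosen by gene name from the deposited mouse gene table: the Hsp70, Hsp90, Hsp110, Hsp60, Hsp10 and small heat shock protein genes, the J-domain genes named Dnaja, Dnajb and Dnajc, the CCT chaperonin subunit genes with Tcp1, and Bag1 to Bag6. Hspa5, Dnajb9, Dnajb11 and Dnajc3, which encode chaperones of the endoplasmic reticulum (ER), and 18 pseudogenes were left out by the same rule. The rule found 83 genes among the 57180 in the table. It used names and no measured value. Of the 83, 71 had enough counts to be tested. Names do not give location, and 10 of the tested genes encode proteins that are held to sit in the ER or its membrane, so the group is not purely cytosolic and mitochondrial.

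RNA came from regulatory T cells (Treg cells, which hold back immune responses and need the transcription factor FOXP3) that had been sorted from B16-F0 tumours. B16-F0 is a transplantable mouse melanoma line. The FOXP3-high group holds 3 libraries and the FOXP3-low group holds 4. Both groups came from tumour-bearing Foxp3-Cre-YFP mice, in which the Foxp3 gene drives a fusion of Cre recombinase and yellow fluorescent protein, and the labels give the same genotype (WT), tissue (tumour) and cell type (Treg) to all 7 libraries. No treatment, time point or mouse age is given, nor are the sort gates, and the labels do not say whether a library holds 1 mouse or several, or whether the replicates are different animals. The p-values therefore cover only the spread among these libraries, which may be technical.

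Chaperones of the Hsp70 family bind exposed hydrophobic stretches of unfolded proteins in a cycle driven by ATP. J-domain proteins bring them clients and start ATP hydrolysis, and the Hsp110 and BAG proteins act as nucleotide exchange factors that let the client go. Hsp90 takes over late-stage clients such as kinases and steroid receptors, the ring-shaped CCT complex (also called TRiC) folds actin, tubulin and other cytosolic proteins, and the Hsp60 and Hsp10 ring does comparable work in the mitochondrial matrix. Some of these genes are transcribed all the time, and others, among them Hspa1a and Hspa1b, are switched on by heat shock factor 1 (HSF1) through heat shock elements in their promoters when proteins unfold.

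Total counts ran from 9048770 to 11202300 in FOXP3-high libraries and from 12177800 to 14547000 in FOXP3-low libraries. The 83 genes took 2.57% to 2.64% of all counts in FOXP3-high libraries and 2.96% to 3.09% in FOXP3-low libraries. As a check of the labels, Foxp3 averaged 698 ± 95.4 CPM in FOXP3-high and 357 ± 44.3 CPM in FOXP3-low libraries (SD, n = 3 and 4), with no overlap. CPM here are computed on TMM-normalized library sizes. Each log2 fold change is that of FOXP3-high over FOXP3-low, given with its standard error, and a gene is called higher or lower where the Benjamini-Hochberg adjusted p of edgeR's quasi-likelihood test, over all 15838 genes tested, is under 0.05. The comparison asks how chaperone transcripts differ between tumour Treg cells with much and with little FOXP3. In such bulk samples, fewer cells of a type and less RNA per cell cannot be told apart.

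The libraries also differed in transcripts of other cells and of dividing cells. Of 20 macrophage markers 19 were called lower and 1 higher, and their summed level was 991 to 1030.2 CPM in FOXP3-high and 3545 to 4490.0 CPM in FOXP3-low libraries, with Cd163 and Ms4a7 near 0 in FOXP3-high. Neutrophil markers (6 of 7 tested lower) summed to 103 to 235 CPM in FOXP3-high and to 2638 to 3102 CPM in FOXP3-low. Ly6g, at 0 in FOXP3-high, was not tested, and 1 of the 8 listed neutrophil genes averaged under 1 CPM in FOXP3-low. Dendritic cell markers (10 of 10 lower) summed to 96.7 to 171 CPM in FOXP3-high and to 1348 to 2122 CPM in FOXP3-low. B cell markers (4 of 6 tested lower) summed to 92.2 to 123 CPM in FOXP3-high and to 398 to 529.8 CPM in FOXP3-low. Ms4a1, near 0 in FOXP3-high, was not tested, and 2 of the 8 listed B cell genes averaged under 1 CPM in FOXP3-low. CD8 and NK cell markers (3 of 5 tested lower) summed to 23.0 to 34.3 CPM in FOXP3-high and to 52.5 to 73.2 CPM in FOXP3-low. Melanoma markers (12 of 12 higher, 9 under T cell identity scaling) summed to 3504 to 4824 CPM in FOXP3-high and to 1446 to 2589.9 CPM in FOXP3-low. All 25 cell cycle genes were lower, with sums of 1616 to 1857 CPM in FOXP3-high and 6987 to 7455 CPM in FOXP3-low. Of 17 T cell identity genes 15 were higher and 1 (Thy1) lower, with sums of 5396 to 6125 CPM in FOXP3-high and 3998 to 4434 CPM in FOXP3-low. Of 6 Treg genes 4 were higher and none lower (2 higher and 2 lower where libraries are scaled to the T cell identity genes). The 4 include Foxp3, for which the groups are named, so its difference is no separate result. Endothelial and fibroblast markers gave 1 lower and no higher gene of 9 tested, and their sums overlapped, at 121 to 830.1 CPM in FOXP3-high and 626 to 1476 CPM in FOXP3-low. Scaling each library to those 17 T cell genes instead of TMM moved the log2 fold change of every gene down, by 0.48 at the median of all genes (shift -0.48), and where it turns the direction of a fold change printed below, that is said beside it. The part of these other transcripts in the chaperone differences was not tested.

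Promoter sequence is shown for genes with an exact match upstream of the start to the 3-unit heat shock element, which HSF1 binds. It is also shown for Hspa1a and Hspa1b, whose promoters are nearly the same. Only exact matches were counted, so elements with a differing base were not looked for in any gene. The heat shock element is a run of GAA units facing in alternate directions. A 3-unit form (GAA, TTC and GAA in that order with NN between neighbours, or TTC, GAA and TTC on the other strand) and the shorter 2-unit form inside it (GAANNTTC, which reads the same on both strands) were searched in the 250 bases before each RefSeq start on both strands. RefSeq promoters (GRCm38.p6) were matched for 66 of the 83 genes. Capitals mark the matches, and each sequence runs 5′ to 3′ on the strand named.
Hspa1a (chr17:34972157-34972406, GRCm38.p6, minus strand): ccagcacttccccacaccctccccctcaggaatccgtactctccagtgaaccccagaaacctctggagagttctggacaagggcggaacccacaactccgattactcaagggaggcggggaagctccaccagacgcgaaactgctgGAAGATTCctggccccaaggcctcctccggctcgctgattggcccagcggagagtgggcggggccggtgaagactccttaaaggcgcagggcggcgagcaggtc
Hspa1b (chr17:34959239-34959488, GRCm38.p6, minus strand): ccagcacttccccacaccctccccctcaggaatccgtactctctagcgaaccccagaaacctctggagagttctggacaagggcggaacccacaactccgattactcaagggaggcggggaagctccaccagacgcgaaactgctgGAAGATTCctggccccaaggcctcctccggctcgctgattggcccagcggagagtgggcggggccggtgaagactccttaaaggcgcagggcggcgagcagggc
Dnajb6 (chr5:29735648-29735897, GRCm38.p6, plus strand): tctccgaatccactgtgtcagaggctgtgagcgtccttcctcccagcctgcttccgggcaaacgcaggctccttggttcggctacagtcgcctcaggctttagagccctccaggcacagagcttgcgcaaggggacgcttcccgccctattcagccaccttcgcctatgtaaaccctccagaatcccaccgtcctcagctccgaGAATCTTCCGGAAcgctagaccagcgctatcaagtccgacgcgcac
Stretch between the starts of Hspd1 and Hspe1 (chr1:55087933-55088147, GRCm38.p6, plus strand): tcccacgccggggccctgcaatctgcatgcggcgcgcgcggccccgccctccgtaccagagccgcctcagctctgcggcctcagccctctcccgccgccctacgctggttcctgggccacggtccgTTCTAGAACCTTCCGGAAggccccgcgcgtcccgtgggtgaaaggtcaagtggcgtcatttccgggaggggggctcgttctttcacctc

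Hspa1a and Hspa1b each held a single exact match to the 2-unit form, GAAGATTC, whose first base lies 104 bases before the start. Longer elements with a differing base around it were not looked for. Their 250-base stretches differed at 3 positions and were 98.8% identical. Dnajb6, the anti-aggregation J-domain protein, held a 3-unit match 46 bases before the start printed. Hspd1 and Hspe1, the genes of mitochondrial Hsp60 and Hsp10, are transcribed away from each other from starts 215 bases apart, and that shared stretch held a pair of overlapping 3-unit matches. These 3 genes were the only ones of the 66 with a 3-unit match (4.55%), against 0.514% of 27025 mouse genes. A 2-unit match stood before 13 of the 66 genes (19.7%) against 7.73% of all genes. For the E-box CACGTG, searched the same way, the shares were 6.06% of the 66 genes and 6.86% of all genes. Among the 3 genes with the 3-unit form, Dnajb6 was called higher in FOXP3-high (lower under T cell identity scaling), and Hspd1 and Hspe1 were called lower.

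Across the 71 chaperone genes tested, 8 were higher and 25 lower in FOXP3-high, and 38 did not pass the threshold. That is 11.3% higher and 35.2% lower, where 21.8% of all genes tested were higher and 24.6% lower. The share called in either direction was 46.5% for the chaperones and 46.5% for all genes, so that the chaperones were no more often called than other genes. Their median log2 fold change was -0.08, with a range of -0.84 to 0.71, against a median of 0.01 over all genes. In 11 chaperone genes all FOXP3-high libraries lay above all FOXP3-low libraries, and in 27 they lay below, or 15.5% and 38.0% of the 71, where 23.9% and 26.8% of all genes did (50.7% in either direction). Summed over the 83 genes, FOXP3-high libraries held 25351 ± 691 CPM and FOXP3-low libraries 30955 ± 659 CPM, a ratio of 0.819. Where libraries were scaled to total counts, 13 were higher and 23 lower, so the share of higher genes among those called was 36.1% in place of 24.2%. Over all genes called that share was 54.3% in place of 47.0%. Under T cell identity scaling 1 was higher and 46 lower, or 1.41% and 64.8% of the 71. Over all genes tested, 5.03% were higher and 51.0% lower under that scaling. The distance of the chaperone median from that of all genes was -0.09 under both TMM and T cell identity scaling.

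**Figure D1:**
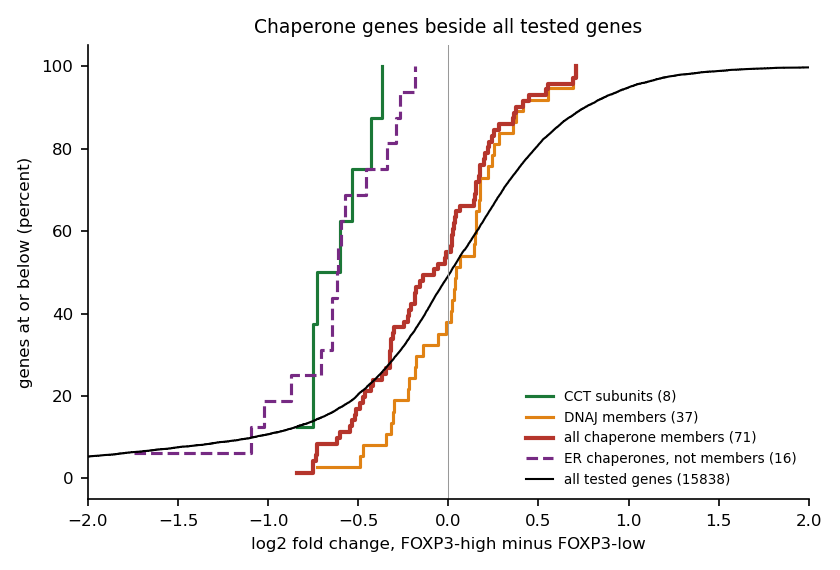
Share of genes (y axis, percent) at or below each log2 fold change (x axis, FOXP3-high minus FOXP3-low, TMM scaling) for the 71 tested chaperone genes, the 8 CCT subunits and 37 DNAJ genes among them, 16 ER chaperones outside the group and all 15838 genes tested. The chaperone line crosses its median at -0.08 and that of all genes at 0.01, the chaperones span -0.84 to 0.71, and the whole of both the CCT and the outside ER chaperone lines lies below 0.

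Direction differed in part by chaperone class. The Hsp90, Hsp110, Hsp60 and Hsp10, and CCT genes were lower in FOXP3-high in all 15 tested cases. Of all genes tested 24.6% were lower. The 8 higher genes came from the Hsp70, DNAJA, DNAJB, DNAJC and BAG classes. Most of these classes also held lower genes, 3 in Hsp70, 1 in DNAJA, 5 in DNAJC and 1 in BAG, but none in DNAJB. All 25 lower calls kept their direction and their call when any 1 library was left out. Of the 8 higher genes only Dnaja4 stayed higher under T cell identity scaling, where Dnajb1 stood at 0.07 without a call and the other 6 turned negative.

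**Figure D2:**
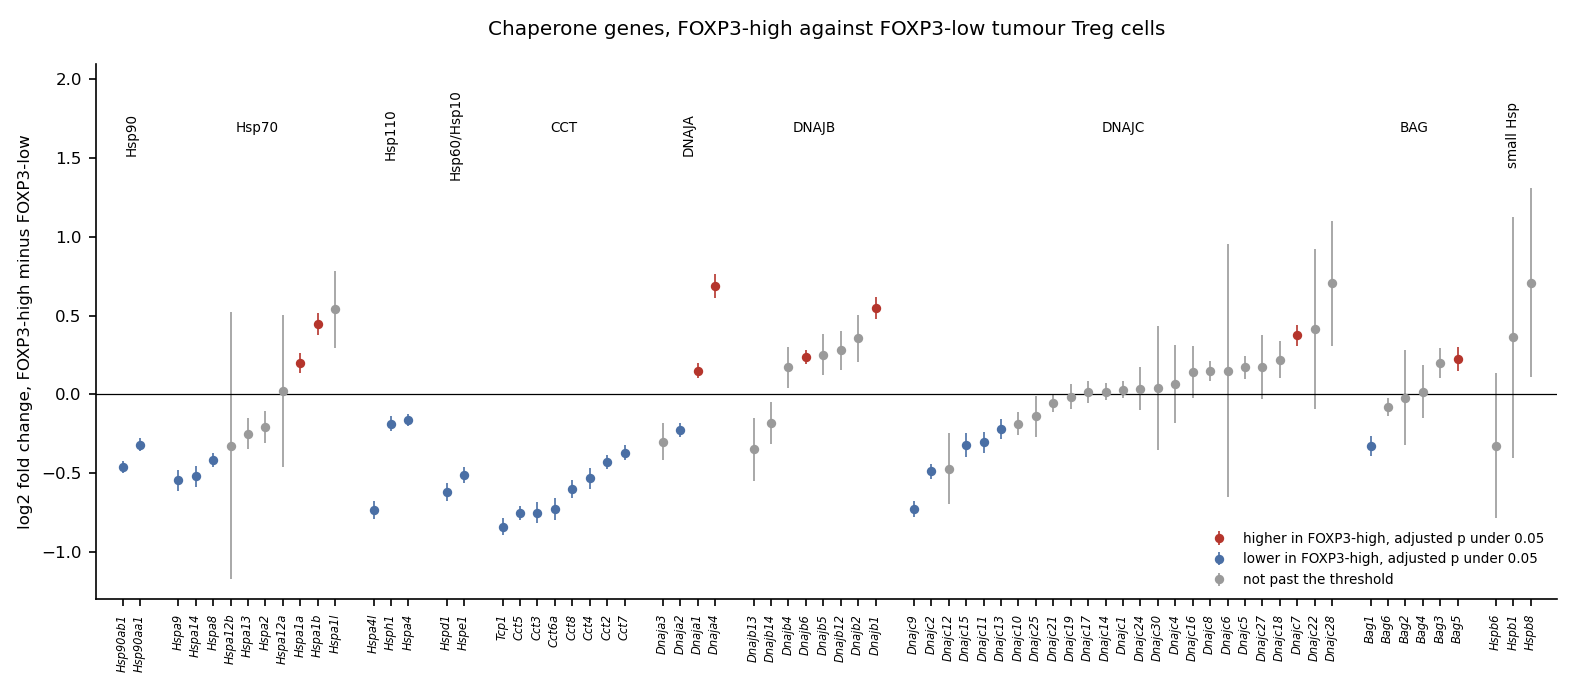
Log2 fold change (y axis, FOXP3-high minus FOXP3-low, TMM scaling) of each tested chaperone gene, ordered by class, with bars of 1 standard error. All CCT genes lie between -0.84 and -0.37, and the red points are the 8 genes called higher, of which 6 turn negative under T cell identity scaling.

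Both cytosolic Hsp90 genes fell. Hsp90ab1, which encodes the constitutive Hsp90β and was the most abundant chaperone transcript, had 7380.0, 7487 and 7109 CPM in FOXP3-high libraries, against 10282.5, 9897, 10042 and 10137 CPM in FOXP3-low libraries. Its highest FOXP3-high library lay well under its lowest FOXP3-low library (log2 fold change -0.46 ± 0.037, edgeR adjusted p = 8.08e-06). Per kilobase of gene length it reached 2443 ± 65.0 RPKM in FOXP3-high and 3364 ± 54.0 RPKM in FOXP3-low, which ranked it 5 of all genes in both groups. Hsp90aa1, which encodes the inducible Hsp90α, had 3256, 3132 and 3019 CPM in FOXP3-high libraries, against 4002, 3752, 3991 and 3896 CPM in FOXP3-low libraries. The groups did not overlap here either (-0.32 ± 0.043, edgeR adjusted p = 0.000229). Together the pair summed to 10461 ± 289 CPM in FOXP3-high and 13999.9 ± 262 CPM in FOXP3-low, so that they made up the larger part of the drop in the chaperone total.

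The 10 tested Hsp70 genes did not move as a block, with 2 higher, 3 lower and 5 not past the threshold. The shares of 20% higher and 30% lower stood beside 21.8% and 24.6% of all genes tested. Hspa8, the constitutive Hsc70 that also strips clathrin from vesicles, had 4168, 4159.5 and 4110.0 CPM in FOXP3-high libraries, against 5870.3, 5397, 5587 and 5262 CPM in FOXP3-low libraries. Its level was lower in every FOXP3-high library (-0.42 ± 0.045, edgeR adjusted p = 5.55e-05), and by RPKM it ranked 20 of all genes in FOXP3-high and 11 in FOXP3-low. The heat-inducible pair lay the other way under TMM scaling. Hspa1b had 1709, 1963 and 1579 CPM in FOXP3-high libraries, against 1323, 1279, 1314 and 1219 CPM in FOXP3-low libraries. No FOXP3-high library reached down to the FOXP3-low range, and the difference of 0.45 ± 0.069 (edgeR adjusted p = 0.000568) became -0.04 under T cell identity scaling. Hspa1a had 724, 785 and 669.7 CPM in FOXP3-high libraries, against 650.3, 628, 663 and 585 CPM in FOXP3-low libraries. The lowest FOXP3-high library lay just above the highest FOXP3-low library, and the difference of 0.20 ± 0.063 (edgeR adjusted p = 0.0256) became -0.29 under T cell identity scaling. Without FOXP3-high replicate 1 Hspa1a was at 0.18 and did not pass (edgeR adjusted p = 0.0991).

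Hspa1a and Hspa1b lie on chromosome 17 on the minus strand, at 35188166 to 35191132 and 35175412 to 35178214 in the deposited coordinates (taken as GRCm39, the mouse build in the submitters' processing notes). They are near copies. Of the 2868 windows of 100 bases along the Hspa1a transcript, 47.1% were found unchanged in Hspa1b, with a longest shared run of 638 bases, so that their separate counts are uncertain. With the counts of both summed, the difference under TMM scaling was 0.37 (edgeR adjusted p = 0.00139), where under T cell identity scaling each gene alone was negative. Hspa1a also overlaps the predicted gene Gm20481 on the opposite strand, which held 16968 counts over the 7 libraries against 54740 for Hspa1a, and no source used here says whether counting used the strand. Hspa1l, the testis-enriched relative that starts 547 bases from Hspa1a, had 12.0 to 12.7 CPM in FOXP3-high libraries and 4.63 to 10.1 CPM in FOXP3-low libraries and did not pass (edgeR adjusted p = 0.097). Without FOXP3-low replicate 1, the lowest library, it did, at 0.35 (edgeR adjusted p = 0.0462). Its counts matched those of the predicted gene Gm10501 on the opposite strand almost exactly in each library, with 827 and 826 in all, so its values may belong to either.

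A ratio of counts within a library needs no scaling between libraries. The summed counts of Hspa1a and Hspa1b per 100 counts of Hspa8 were 58.4, 66.0 and 54.7 in FOXP3-high libraries, against 33.6, 35.3, 35.4 and 34.3 in FOXP3-low libraries. Per 100 counts of the CCT genes they were 194, 229.7 and 181 in FOXP3-high libraries, against 99.8, 102, 104 and 94.6 in FOXP3-low libraries. Inducible Hsp70 thus made up more of the Hsp70 transcripts in every FOXP3-high library whichever scaling was used, a ratio chosen after the values were seen.

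**Figure D3:**
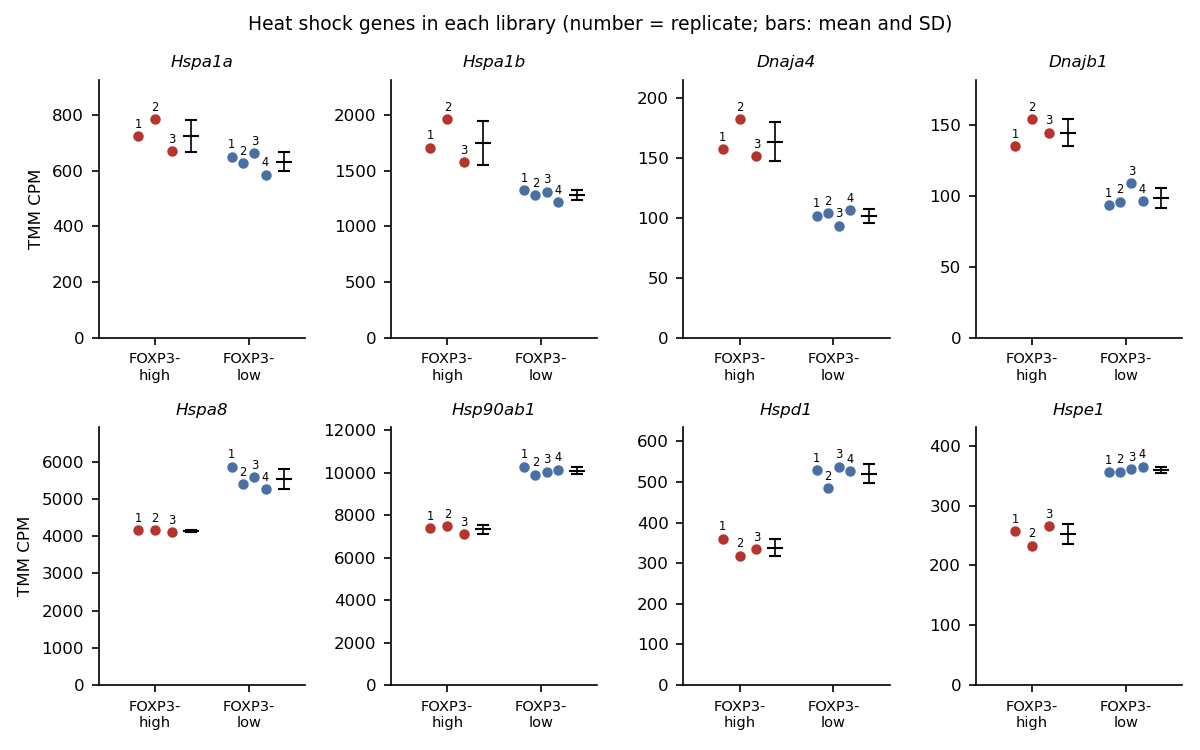
TMM-normalized CPM (y axis, from 0) of 8 chaperone genes in each library, FOXP3-high in red left of FOXP3-low in blue, with the replicate number beside each point and bars for the mean and SD. The genes of the upper row lie higher and those of the lower row lower in all 3 FOXP3-high libraries, and Hspa1a and Hspa1b turn to -0.29 and -0.04 on the log2 scale under T cell identity scaling.

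Among the other Hsp70 genes, Hspa9, the mitochondrial Hsp70 mortalin, had 404, 338 and 386 CPM in FOXP3-high libraries, against 580.4, 533, 546 and 536 CPM in FOXP3-low libraries. The groups stood far apart (-0.55 ± 0.065, edgeR adjusted p = 0.000104). Hspa14, a ribosome-associated Hsp70 in mammals, was at 43.7 ± 1.01 CPM in FOXP3-high and 62.7 ± 3.37 CPM in FOXP3-low (-0.52 ± 0.067, edgeR adjusted p = 0.000187), and it shares its position with Msantd7 on the same strand. Hspa2, Hspa12a, Hspa12b and Hspa13 did not pass, and all were expressed at low levels, from 0.111 CPM for Hspa12b to 30.6 CPM for Hspa13.

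The 3 Hsp110 genes, large relatives of Hsp70 that exchange its nucleotide and take part in disaggregation, all fell. Hspa4l changed most, at 58.0, 53.5 and 58.6 CPM in FOXP3-high libraries, against 91.4, 95.6, 94.6 and 96.0 CPM in FOXP3-low libraries. Its groups were tight and clearly apart (-0.73 ± 0.059, edgeR adjusted p = 8.68e-06). The heat-inducible Hsph1 was at 438 ± 23.5 CPM in FOXP3-high and 498 ± 15.8 CPM in FOXP3-low (-0.19 ± 0.049, edgeR adjusted p = 0.0119). Hspa4 was at 521 ± 9.41 CPM in FOXP3-high and 582 ± 12.4 CPM in FOXP3-low (-0.16 ± 0.039, edgeR adjusted p = 0.00779). Neither Hsph1 nor Hspa4 passed without both libraries numbered 3 (edgeR adjusted p = 0.0814 and 0.0744), which hold the highest summed endothelial and fibroblast markers (830.1 CPM in FOXP3-high, 1476 CPM in FOXP3-low).

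Chaperones of the mitochondria were lower or did not pass. Hspd1 (Hsp60) had 360.0, 319 and 335 CPM in FOXP3-high libraries, against 529, 485, 538 and 527 CPM in FOXP3-low libraries. Hspe1, its Hsp10 lid, had 258, 233 and 266 CPM in FOXP3-high libraries, against 356, 357, 361 and 365 CPM in FOXP3-low libraries. Every FOXP3-high library lay below every FOXP3-low library for both genes, with differences of -0.62 ± 0.056 and -0.51 ± 0.052 (edgeR adjusted p = 1.9e-05 and 3.84e-05). In the deposited annotation, which starts them elsewhere than RefSeq does, these divergent genes overlap by 112 bases at their 5′ ends on opposite strands. The 10 tested members known to work in mitochondria summed to 1122 ± 63.4 CPM in FOXP3-high and 1608 ± 45.6 CPM in FOXP3-low. Of them 5 were lower (50%, beside 24.6% of all genes tested) and none higher (beside 21.8%). Besides Hspd1, Hspe1 and Hspa9 these were Dnajc11, a J-domain protein of the inner membrane contact complex, at 53.4 ± 3.14 CPM in FOXP3-high and 65.9 ± 1.62 CPM in FOXP3-low, and Dnajc15, which stimulates import into the matrix, at 27.3 ± 0.945 CPM in FOXP3-high and 34.2 ± 2.07 CPM in FOXP3-low. Dnaja3, Dnajc4, Dnajc19, Dnajc28 and Dnajc30 did not pass. Among 15 further genes of mitochondrial protein quality control, from a list written for this comparison, 6 were lower and none higher, led by Trap1, the mitochondrial Hsp90 (74.2 ± 3.03 CPM in FOXP3-high, 94.1 ± 2.68 CPM in FOXP3-low), Phb2, a prohibitin, and Grpel1, the exchange factor of mortalin. The median of that list was -0.11, and 40% of it was lower and 0% higher, beside 24.6% and 21.8% of all genes tested.

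All 8 tested subunit genes of the CCT ring fell. Tcp1, the alpha subunit, had 273, 255 and 265 CPM in FOXP3-high libraries, against 508, 463, 458 and 462 CPM in FOXP3-low libraries. It was the gene with the largest decrease among the chaperones tested (-0.84 ± 0.052, edgeR adjusted p = 1.78e-06), and a 502-base end of it overlaps Mrpl18 on the opposite strand. Cct5, the epsilon subunit, had 202, 191 and 205 CPM in FOXP3-high libraries, against 341, 337, 325 and 339 CPM in FOXP3-low libraries. Both groups held together closely (-0.75 ± 0.045, edgeR adjusted p = 1.49e-06). Cct2, the beta subunit, had 236, 234 and 229 CPM in FOXP3-high libraries, against 324, 297, 314 and 319.7 CPM in FOXP3-low libraries. Its difference of -0.43 ± 0.046 (edgeR adjusted p = 5.29e-05) was smaller than that of every other subunit except Cct7. The other subunits were Cct3 at -0.75 ± 0.068, Cct6a at -0.73 ± 0.070, Cct8 at -0.60 ± 0.058, Cct4 at -0.53 ± 0.068 and Cct7 at -0.37 ± 0.046, with edgeR adjusted p between 1.88e-05 and 0.000177. The ring holds its subunits in equal number. Per kilobase of deposited gene length Cct4 was lowest of the 8 tested subunits, at 8.28 RPKM in FOXP3-high and 12.0 RPKM in FOXP3-low. Cct2 was highest, at 91.1 RPKM in FOXP3-high and 123 RPKM in FOXP3-low. The deposited length was 4201 bases for Cct4 and 2557 bases for Cct2, and the handling of shared reads is not known. The part of gene length and shared reads in this spread was not tested. Cct6b, a testis-enriched copy of Cct6a, stood below 1 CPM in all libraries, and Cct8l1 had no counts.

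**Figure D4:**
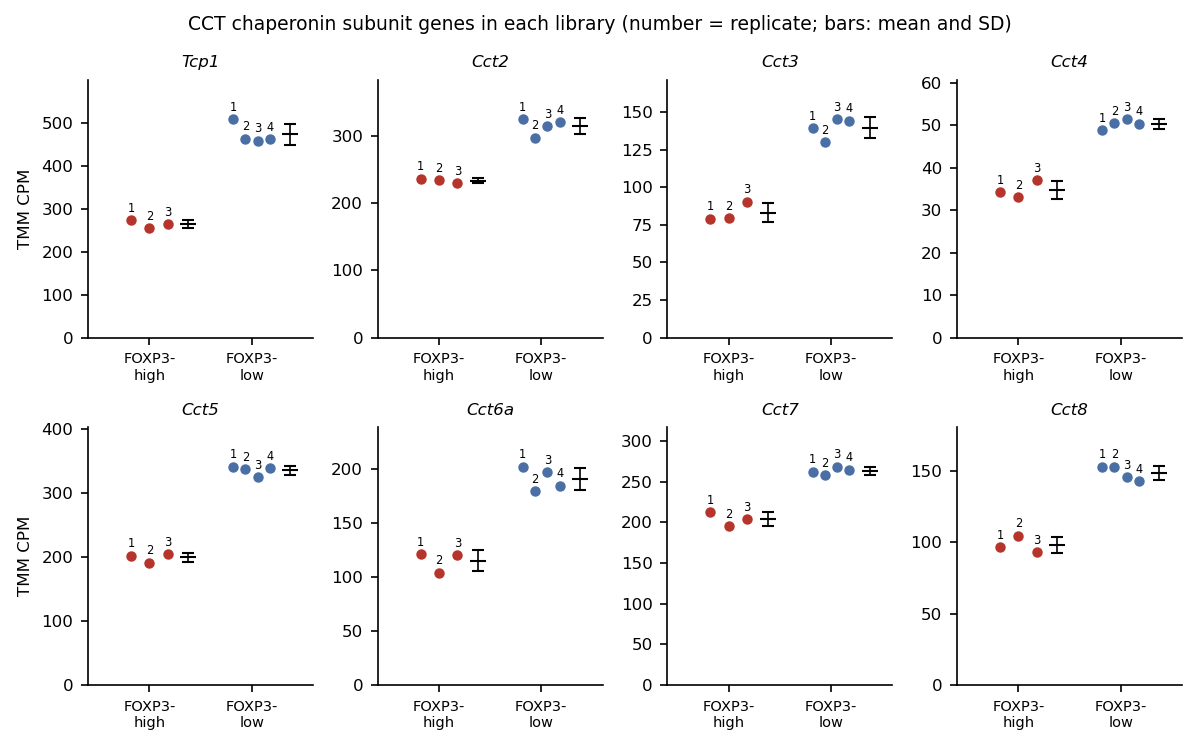
TMM-normalized CPM (y axis, from 0) of the 8 CCT subunit genes in each library, FOXP3-high in red left of FOXP3-low in blue, with replicate numbers and bars for the mean and SD. In each of the 8 genes all 3 FOXP3-high libraries lie below all 4 FOXP3-low libraries.

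Summed over the complex, CCT transcripts came to 1231 ± 31.4 CPM in FOXP3-high and 1914 ± 46.1 CPM in FOXP3-low, a ratio of 0.643, the lowest of the 10 classes. The 25 cell cycle genes moved the same way and further, with Mki67 at 588 ± 39.4 CPM in FOXP3-high and 2879.9 ± 120.1 CPM in FOXP3-low. Prefoldin, which hands actin and tubulin to CCT, moved less evenly, as did the tubulin cofactors and the CCT helpers Pdcl, Pdcl3 and Txndc9. Of 14 such genes 6 were lower, led by Pfdn1 (47.1 ± 1.2 CPM in FOXP3-high, 66.4 ± 3.27 CPM in FOXP3-low), Vbp1 and Pfdn4, and 1 was higher, Pfdn5, at 133 ± 2.49 CPM in FOXP3-high and 114 ± 7.24 CPM in FOXP3-low (0.23 ± 0.059, edgeR adjusted p = 0.0108, but -0.25 under T cell identity scaling). The list's median was -0.12, and 42.9% of it was lower and 7.14% higher, beside 24.6% and 21.8% of all genes tested.

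**Figure D5:**
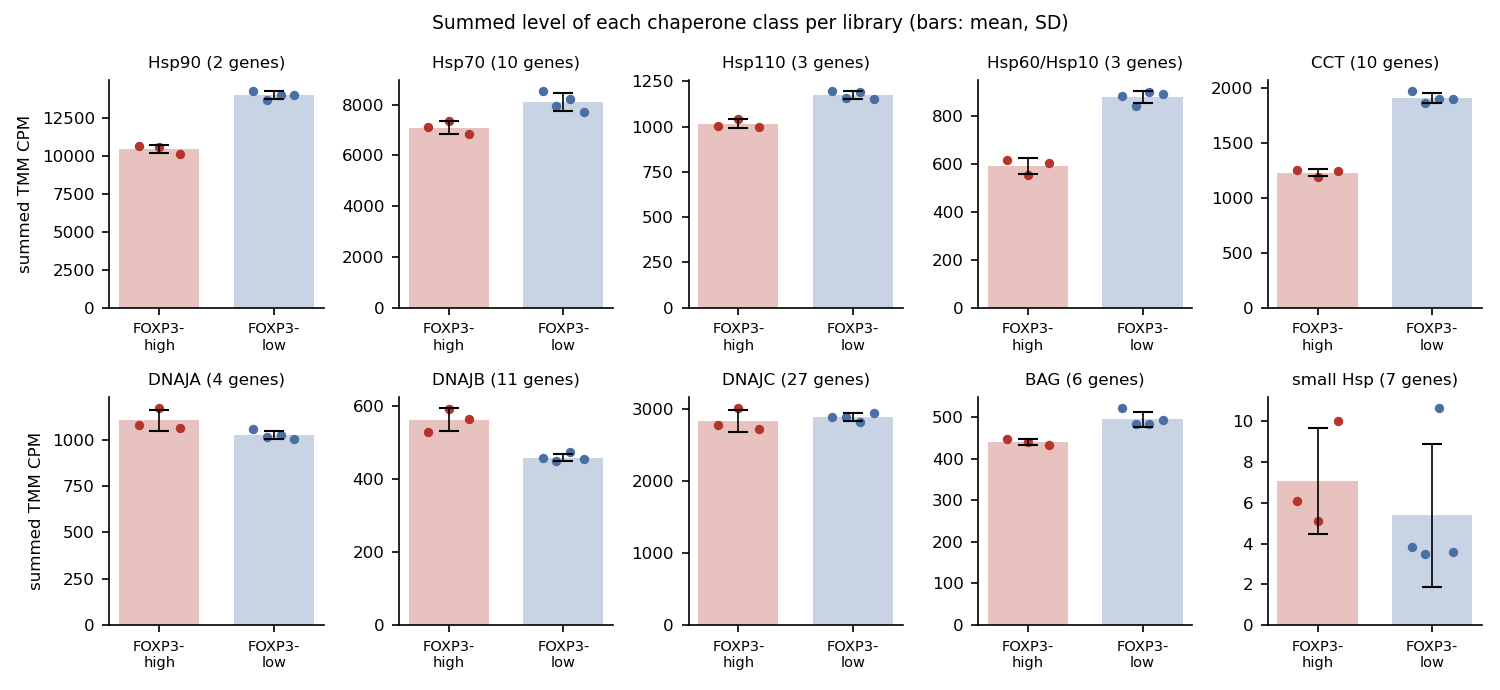
Summed TMM-normalized CPM (y axis, from 0) of the genes of each chaperone class, tested or not, with 1 point per library and bars for the mean and SD, FOXP3-high left of FOXP3-low. The CCT sum in FOXP3-high is 0.643 of that in FOXP3-low, and the DNAJB sum is 1.23 times it, although the DNAJB median of 0.25 on the log2 scale becomes -0.23 under T cell identity scaling.

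Of the 4 genes of class A J-domain proteins 2 were higher and 1 lower (50% and 25%, beside 21.8% and 24.6% of all genes tested). Dnaja4, a cytosolic Hsp70 partner, had 158, 182 and 152 CPM in FOXP3-high libraries, against 102, 104, 93.6 and 107 CPM in FOXP3-low libraries. The lowest FOXP3-high library stood far above the highest FOXP3-low library (0.69 ± 0.074, edgeR adjusted p = 5.57e-05), and at 0.21 it was still called under T cell identity scaling (edgeR adjusted p = 0.0248), and it was the only higher chaperone gene that glmTreat called against a log2 fold change of 0.5. Dnaja1, the main cytosolic class A partner, was at 656 ± 31.5 CPM in FOXP3-high and 591 ± 19.1 CPM in FOXP3-low (0.15 ± 0.047, edgeR adjusted p = 0.0241, but -0.33 under T cell identity scaling). Without FOXP3-high replicate 1 it did not pass (edgeR adjusted p = 0.0759), nor without FOXP3-low replicate 3 (0.0505). Dnaja2 was lower, at 264 ± 11.3 CPM in FOXP3-high and 308 ± 4.31 CPM in FOXP3-low (-0.22 ± 0.044, edgeR adjusted p = 0.00256). Mitochondrial Dnaja3 (Tid1) averaged 20.4 CPM in FOXP3-high and 25.1 CPM in FOXP3-low and did not pass (edgeR adjusted p = 0.061), although it did without FOXP3-high replicate 3 (-0.38, edgeR adjusted p = 0.0419) and without FOXP3-low replicate 2 (-0.34, edgeR adjusted p = 0.0411).

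Of the 8 tested genes of class B J-domain proteins 2 were higher and none lower. Those shares were 25% and 0%, beside 21.8% and 24.6% of all genes tested. Dnajb1, the Hsp40 that HSF1 induces along with Hspa1a, had 135, 154 and 145 CPM in FOXP3-high libraries, against 93.5, 96.1, 109 and 96.4 CPM in FOXP3-low libraries. Its groups did not overlap (0.55 ± 0.069, edgeR adjusted p = 0.000155), and the difference shrank to 0.07 without a call under T cell identity scaling. Dnajb6 had 302, 330.1 and 312 CPM in FOXP3-high libraries, against 269.8, 266, 263 and 267 CPM in FOXP3-low libraries (0.24 ± 0.044, edgeR adjusted p = 0.0017, but -0.24 under T cell identity scaling). Its FOXP3-low libraries were nearly equal and all lay below FOXP3-high. Dnajb4 did not pass, but did without FOXP3-low replicate 3 (0.30, edgeR adjusted p = 0.0222), while with all libraries under T cell identity scaling it stood at -0.31 without a call. Dnajb2 and Dnajb12 passed without FOXP3-high replicate 1 (0.47 and 0.39, edgeR adjusted p = 0.0317 and 0.0184), and with all libraries under T cell identity scaling they stood at -0.13 and -0.21 without a call.

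Class C of the J-domain proteins is large and mixed, and had 25 tested genes, of which 1 was higher, 5 lower and 19 not past the threshold. The shares of 4% higher and 20% lower were both under those of all genes tested, 21.8% and 24.6%. Dnajc7, which also has the repeats that bind Hsp90 and passes clients between Hsp70 and Hsp90, had 372, 405 and 348 CPM in FOXP3-high libraries, against 286, 289.7, 270.4 and 311 CPM in FOXP3-low libraries (0.37 ± 0.064, edgeR adjusted p = 0.00103, but -0.11 under T cell identity scaling). It overlaps Cnp on the opposite strand. Dnajc9, a histone chaperone that recruits Hsp70 to histones, had 99.0, 109 and 102 CPM in FOXP3-high libraries, against 175, 171, 167 and 173 CPM in FOXP3-low libraries. The groups were far apart (-0.73 ± 0.051, edgeR adjusted p = 3.68e-06). Dnajc2, which works on the ribosome with Hspa14, was at 311 ± 13.6 CPM in FOXP3-high and 436 ± 15.4 CPM in FOXP3-low (-0.49 ± 0.049, edgeR adjusted p = 3.38e-05). Dnajc11 (-0.30 ± 0.064), Dnajc15 (-0.32 ± 0.077) and the endosomal Dnajc13 (-0.22 ± 0.063) were the other lower genes, and without both libraries numbered 3 neither Dnajc13 nor Dnajc15 passed (edgeR adjusted p = 0.0885 and 0.0706). Dnajc8, a spliceosome protein and the most abundant gene of the class, had 978, 1099.7 and 932 CPM in FOXP3-high libraries, against 875, 927, 866 and 955 CPM in FOXP3-low libraries. Its groups overlapped and it did not pass (0.15 ± 0.062, edgeR adjusted p = 0.0806), and under T cell identity scaling it turned to -0.34 and was called lower (edgeR adjusted p = 0.000117). Under TMM scaling it passed as higher without FOXP3-high replicate 3 (0.20, edgeR adjusted p = 0.0343) and without FOXP3-low replicate 4 (0.19, edgeR adjusted p = 0.0442). Without FOXP3-high replicate 3 Dnajc10 also passed (-0.24, edgeR adjusted p = 0.041), and without FOXP3-low replicate 1 Dnajc5 did (0.23, edgeR adjusted p = 0.0331, but -0.31 and called lower with all libraries under T cell identity scaling).

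The 10 tested chaperones held to be ER proteins by location, among them Dnajc1, Dnajc10, Dnajb12 and Hspa13, gave no call in either direction, with summed levels of 573 ± 29.6 CPM in FOXP3-high and 573 ± 3.33 CPM in FOXP3-low and a median log2 fold change of 0.02 (-0.46 under T cell identity scaling, with 6 lower). For the 16 ER chaperones and folding enzymes outside the 83 genes, 15 were lower and none higher, with a median of -0.62 (led by Creld2, at 48.1 ± 2.52 CPM in FOXP3-high and 103 ± 3.48 CPM in FOXP3-low, Hspa5 and Dnajb11). Of all genes tested 24.6% were lower, and 46.5% were called in either direction.

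Of the BAG genes Bag1 fell, Bag5 rose (but -0.25 under T cell identity scaling), and Bag2, Bag3, Bag4 and Bag6 did not pass. Bag1, which links Hsp70 to the proteasome, had 248, 234 and 225 CPM in FOXP3-high libraries, against 327, 286, 281 and 286 CPM in FOXP3-low libraries. The groups did not overlap (-0.32 ± 0.064, edgeR adjusted p = 0.00243). Bag5, with several BAG domains, had 38.0, 39.7 and 37.9 CPM in FOXP3-high libraries, against 32.2, 30.9, 32.5 and 36.3 CPM in FOXP3-low libraries (0.23 ± 0.077, edgeR adjusted p = 0.0358). That call was the least secure of the 8: it was lost on leaving out any 1 library other than FOXP3-low replicate 4, with edgeR adjusted p of 0.0512 to 0.101. Bag3, which HSF1 induces and which works in selective autophagy, averaged 40.2 ± 2.91 CPM in FOXP3-high and 35.0 ± 3.35 CPM in FOXP3-low (edgeR adjusted p = 0.106), and passed without FOXP3-low replicate 3 (0.25, edgeR adjusted p = 0.0491), but stood at -0.28 without a call with all libraries under T cell identity scaling.

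Small heat shock proteins were scarce. Of 7 genes 3 were tested, none was called, and the class summed to 7.08 ± 2.58 CPM in FOXP3-high and 5.39 ± 3.51 CPM in FOXP3-low. Hspb1 (Hsp27 in humans) had 1.12, 1.45 and 4.81 CPM in FOXP3-high libraries, against 0.813, 0.813, 5.05 and 0.837 CPM in FOXP3-low libraries. The library numbered 3 was the high one in each group, as it was for the summed endothelial and fibroblast markers, and the part of those cells in the Hspb1 level was not tested. Hspb8 did not pass with all libraries (0.71 ± 0.60, edgeR adjusted p = 0.37). It had 26, 15 and 26 counts in FOXP3-high libraries, against 3, 16, 40 and 9 counts in FOXP3-low libraries. Without FOXP3-low replicate 3, the library with 40 counts, Hspb8 was called higher (1.45, edgeR adjusted p = 0.0422). The 12 genes that were not tested, 4 of them of this class, had no more than 1.23 CPM in any library.

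By how they are known to be regulated, 14 members are held to be induced by heat in mammalian cells. Of these 4 were higher (Hspa1a, Hspa1b, Dnaja1 and Dnajb1), 6 lower (Hspa8, Hsp90aa1, Hsph1, Hspa4l, Hspd1 and Hspe1) and 4 not called, so the list did not move one way. The shares of 28.6% higher and 42.9% lower stood beside 21.8% and 24.6% of all genes tested. The list's median of 0.16 became -0.32 under T cell identity scaling. It counts Hspa8, described above as the constitutive Hsc70, and its shares depend on such choices. Hsf1 itself was at 15.4 ± 3.05 CPM in FOXP3-high and 15.4 ± 1.74 CPM in FOXP3-low and did not pass (edgeR adjusted p = 0.992), while Hsf2 was lower, at 12.5 ± 1.45 CPM in FOXP3-high and 19.3 ± 3.02 CPM in FOXP3-low (-0.63 ± 0.14, edgeR adjusted p = 0.00582). Both were named after their values were seen.

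Co-chaperones of Hsp70 and Hsp90 that are not members also went both ways. They were listed together with Hsf1, Hsf2 and Hsbp1, which are not co-chaperones. Of these 29 genes 11 were lower, Hsf2 among them, and 4 higher, with a median of -0.06 (0.004 under total counts). Those shares were 37.9% and 13.8%, beside 24.6% and 21.8% of all genes tested. Nudc, a nuclear movement protein that works with Hsp90, had 386, 375 and 394 CPM in FOXP3-high libraries, against 643, 614, 611 and 616 CPM in FOXP3-low libraries (-0.69 ± 0.041, edgeR adjusted p = 1.46e-06). Stip1 (Hop), which bridges Hsp70 and Hsp90, had 199, 196 and 195 CPM in FOXP3-high libraries, against 350.1, 329, 332 and 320.4 CPM in FOXP3-low libraries (-0.76 ± 0.045, edgeR adjusted p = 1.47e-06). For both genes the groups stood far apart. St13, another Hsp70 partner, was at 541 ± 3.22 CPM in FOXP3-high and 699 ± 8.15 CPM in FOXP3-low (-0.37 ± 0.036, edgeR adjusted p = 2.96e-05). The 4 higher genes were Unc45a, Cdc37l1, Rpap3 and Tomm34, and none of them was called under T cell identity scaling, where Rpap3 and Tomm34 stood at -0.01 and -0.11. Stub1, the ubiquitin ligase that in T cells is known to work with Hsp70 in the degradation of FOXP3, averaged 80.8 ± 5.78 CPM in FOXP3-high and 84.0 ± 7.44 CPM in FOXP3-low and did not pass (edgeR adjusted p = 0.623), and it was named after its values were seen.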

How the data were processed

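Bulk stranded mRNA libraries were made from TRIzol-extracted RNA, per the labels' protocols. The authors deposited raw whole-number counts per gene in 1 table of 57180 genes, with no unmapped column and no nameless row. The submitters' processing notes name featureCounts, STAR 2.5.3a and fastp 0.23.4, and both GRCm39 and GRCh38 as builds. No source used here gives the strand setting or says how shared reads and duplicates were handled. Deposited coordinates were taken as GRCm39, since they differ from those of a GRCm38 annotation for all but 2 of the 83 genes, and promoter sequence is RefSeq's for GRCm38.p6.

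Groups and replicate numbers came from sample titles. Counts were fitted in R 4.3.3 with edgeR 4.0.16 (filterByExpr with the group, minimum count 10 and total 15; TMM; glmQLFit and glmQLFTest without a block), with Benjamini-Hochberg adjustment over all genes and a threshold of 0.05. A standard error is the size of the log2 fold change over the square root of F. RPKM divides CPM by the deposited gene length in kilobases. At 1 CPM a gene has 9 counts in the shallowest library and 15 in the deepest. Every pair of replicates differed by more than counting noise (chi-square per gene 3.98 to 12.2). The fit was tested on simulated data.

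The chaperone genes and all lists were chosen with earlier results of these data known. Genes were named by class: Foxp3, Hspa1a and Cct2; every tested Hsp90, Hsp60, Hsp10, Hsp110, CCT, BAG and DNAJA gene; in Hsp70, small Hsp, DNAJB and DNAJC the 6 with the smallest adjusted p under 0.05, the 2 with the highest mean CPM and every gene called higher where fewer than 8 are; and in each other list the 3 with the smallest adjusted p under 0.05. Every other gene named, such as those whose call changed when a library was left out, was chosen after its values were seen. Alternatives were DESeq2 size factors, upper quartile factors, total counts and T cell identity scaling; no filter and 50 counts in 3 libraries; DESeq2 1.42.0, limma-voom (limma 3.58.1) and glmTreat against 0.5; each library, and both libraries numbered 3, left out; a replicate block; and, chosen after seeing the data, Hspa1a and Hspa1b summed.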

Additional observations from a re-analysis of the deposited data

Results flagged for a closer look

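In 7 of the 71 tested chaperone genes 1 FOXP3-low library stood apart from the other 3 by a gap that took up more of the group's range than Dixon's 95% critical value for 4 samples, where chance gives such a gap in about 1 of 20 groups. FOXP3-low replicate 1 was high for Tcp1 (507.7 CPM against 457.7 to 463 CPM, gap 0.894 of the range) and Bag1 (327.4 CPM against 281 to 286.1 CPM, gap 0.89). The same library was low for Hspa1l (4.632 CPM against 9.603 to 10.09 CPM, gap 0.911) and Dnajc16 (8.694 CPM against 10.66 to 11.04 CPM, gap 0.835). FOXP3-low replicate 3 was high for Hspb1 (5.047 CPM against 0.8126 to 0.8365 CPM, gap 0.994) and Dnajb4 (31.47 CPM against 21.67 to 22.78 CPM, gap 0.887), and low for Dnajc14 (101.1 CPM against 105.7 to 106.4 CPM, gap 0.851). Tcp1 and Bag1 were called lower in FOXP3-high with and without FOXP3-low replicate 1.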

How the results depend on the processing

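The 25 lower chaperone genes all remained lower under DESeq2 size factors, upper quartile factors, T cell identity scaling, both filters, the DESeq2 test, limma-voom, the replicate block and each library left out; 23 did under total counts (Hspa4 and Dnajc13 lost), 21 without both libraries numbered 3 and 7 by glmTreat. Of the 8 higher genes 1 remained under T cell identity scaling and 1 by glmTreat, and 5 to 8 in the others. T cell identity scaling left 1 chaperone gene higher and 46 lower, and 796 genes higher and 8072 lower over all genes; among chaperones with a call under either scaling it turned Bag5 to -0.25, Dnaja1 to -0.33, Dnajb6 to -0.24, Dnajc1 to -0.45, Dnajc14 to -0.46, Dnajc17 to -0.46, Dnajc24 to -0.44, Dnajc5 to -0.31, Dnajc7 to -0.11, Dnajc8 to -0.34, Hspa1a to -0.29 and Hspa1b to -0.041. Total counts gave 13 higher chaperone genes. GlmTreat, which asks for more than 0.5, called 1 chaperone gene higher and 7 lower, and 2755 of all genes, 929 higher and 1826 lower. Leaving out 1 library gave 7 to 9 higher and 25 to 27 lower chaperone genes, and 6392 to 6890 genes called in all (2718 to 3318 higher, 3412 to 3674 lower). Among all genes called, 47.0% were higher under TMM, 54.3% under total counts and 8.98% under T cell identity scaling.

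Same-numbered libraries did not deviate together throughout (correlations of deviations across genes -0.10, 0.097 and 0.53), so the numbers were not taken as pairs. Differently numbered libraries ran from -0.55 (FOXP3-high 2 with FOXP3-low 3) to 0.34 (FOXP3-high 2 with FOXP3-low 1). The 0.53 of the libraries numbered 3 was thus the highest of all. With the replicate number as a block, 7 chaperone genes were higher and 27 lower (7029 of all genes called), with Hspa1a and Dnaja1 at edgeR adjusted p = 0.0584 and 0.0619. Genes below 1 CPM rest on about 15 counts or fewer per library, which limits what could be seen for the small heat shock proteins.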

Other observations

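All 8 higher chaperone genes were highest, among FOXP3-high libraries, in replicate 2, and 6 of them lowest in replicate 3. FOXP3-high replicate 2 also had the highest summed T cell identity genes of the group (6125 CPM against 5611 and 5396 CPM) and the lowest summed endothelial and fibroblast markers (121 CPM against 519.9 and 830.1 CPM). The 25 lower genes showed no single library at the top of FOXP3-high (12, 8 and 5 genes highest in replicates 1, 2 and 3), while in FOXP3-low 15 of the 25 were highest in replicate 1. Foxp3 too was highest in FOXP3-high replicate 2 (808 CPM against 647 and 639 CPM). These orders were not counted over all genes called, so they are not shown to be particular to the chaperones. They were noticed after the values were seen, and genes within a library are not independent.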
